A study of Mus musculus with 12 samples.

Results

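The change in gene expression of the fetal mouse testis from E13.5 to E15.5 (embryonic days) was compared between M19 and 129/Sv embryos. M19 is the chromosome substitution strain 129.MOLF-Chr 19, whose chromosome 19 comes from MOLF mice on a 129/Sv background, and 129/Sv is the unsubstituted strain. The measure is a double difference, the M19 step (M19 E15.5 minus M19 E13.5) minus the 129/Sv step (129/Sv E15.5 minus 129/Sv E13.5). It was taken for all 45037 probe sets of the array other than controls, none being selected beforehand, and rests on 8 of the 12 arrays of the series. The other arrays hold both strains at E17.5. A probe set is called here when its double difference has an adjusted p under 0.05.

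The groups that enter are M19 at E15.5, M19 at E13.5, 129/Sv at E15.5 and 129/Sv at E13.5, and the E17.5 groups of M19 and 129/Sv are given beside them. All embryos were male, and the tissue was the genital ridge or testis. Total RNA of each group was hybridised to 2 arrays, and 40 pairs of testes were pooled for 2 arrays, so both arrays of a group may share a pool and p-values may measure technical spread alone. All values are deposited signals taken as log2, so a difference of 1 stands for a doubling. Array medians were 8.1 to 8.27, and the number of arrays, not a read depth, limits the precision.

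Between these stages fetal male germ cells leave the cell cycle, shut down the pluripotency genes they share with stem cells, and switch on the pathway of PIWI-interacting RNAs (piRNAs), which silences transposons. Sertoli cells enclose them in cords, and fetal Leydig cells between the cords make steroids. M19 males are known for a high incidence of testicular germ cell tumours, which arise from fetal germ cells that keep pluripotency gene expression. Skin, skeletal muscle and cartilage are not tissues of the testis and form outside the gonad at these stages.

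Defining testis markers were bright in every group. The germ cell gene Ddx4 averaged 10.62, 12.43 and 11.72 in M19 at E13.5, E15.5 and E17.5, and 10.86, 12.25 and 11.73 in 129/Sv. The Sertoli cell hormone gene Amh averaged 10.21, 11.57 and 12.40 in M19 and 10.81, 11.63 and 11.86 in 129/Sv, and the steroid enzyme gene Cyp11a1 10.57, 12.81 and 13.25 in M19 and 11.15, 12.72 and 13.06 in 129/Sv. One array stood apart in its control probe sets. The mean of the 18S ribosomal RNA controls was 9.69 on 129/Sv E13.5 replicate 1, against 6.88 to 8.38 on the other arrays. The difference between the arrays of a group had an SD over probe sets of 0.38 in that group, against 0.161 to 0.292 in the other groups. Correlations between the arrays of a group were 0.979 to 0.996 over probe sets, which are not independent replicates.

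Of 45037 probe sets, 60 were called, or 0.133%. The step was higher in M19 for 8 of them (0.0178%) and lower in M19 for 52 (0.115%). The step within M19 was called for 2461 probe sets (5.46%) and the step within 129/Sv for 2072 (4.6%), so most probe sets that moved within a strain were not called for the double difference. The number called was 29 and 31 without M19 E13.5 replicate 1 and 2, 35 and 28 without M19 E15.5 replicate 1 and 2, and 37 without 129/Sv E15.5 replicate 2. The 8 higher calls were 2 to 5 without any 1 of the M19 E13.5, M19 E15.5, 129/Sv E15.5 or 129/Sv E17.5 arrays. Counted by gene, with each of 18032 genes represented by its brightest probe set, 35 were called (0.194%), 5 higher (0.0277%) and 30 lower (0.166%). In bulk tissue, fewer cells of a type and less RNA per cell cannot be told apart, which holds for every difference below.

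The 60 called probe sets were sorted by a rule on group means. A probe set counts as high in 129/Sv E15.5 alone when its 129/Sv E15.5 mean lies at least 1 log2 unit above each of the 5 other group means, E17.5 included. This rule took 34 probe sets, all among those with a lower step in M19. The other 26 are 8 with a higher step in M19 and 18 with a lower one that did not meet the limit. At a limit of 0.5, 9 of the 18 would join the class, so the line between the class and these probe sets is one of degree. Just inside the limit were Dsg1a at 1.04 and Dkk2 at 1.09 above the next group mean. Just outside were probe sets of Tnnt2 at 0.999 and Fmod at 0.965, and Ebf3 at 0.919.

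**Figure D1:**
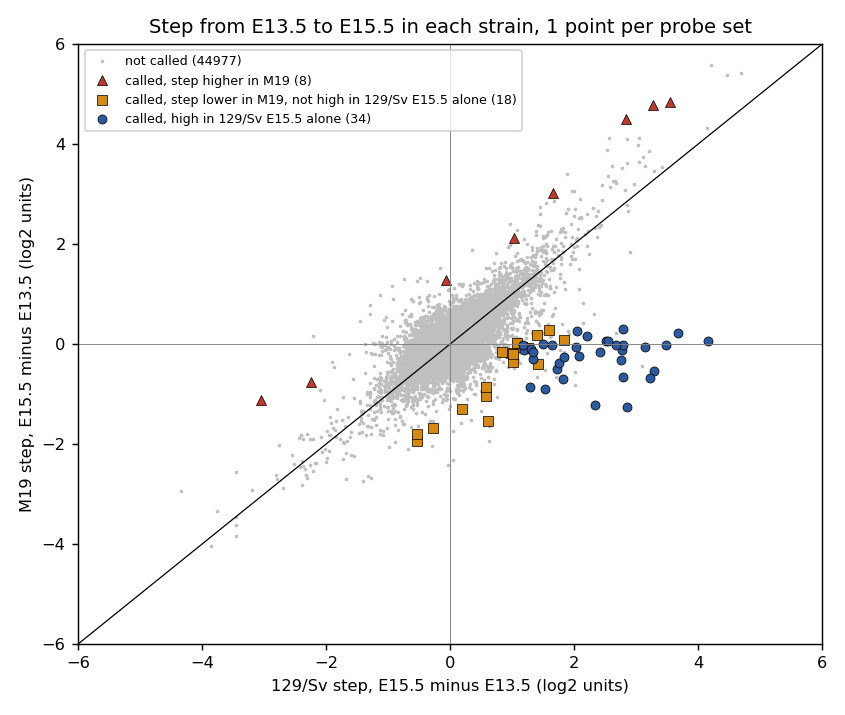
Step from E13.5 to E15.5 of each probe set, with the 129/Sv step on the x axis and the M19 step on the y axis, both in log2 units; the diagonal marks equal steps. The 34 probe sets high in 129/Sv E15.5 alone (blue circles) lie to the right near an M19 step of 0, with a median M19 step of -0.13 and a median 129/Sv step of 2.27. The 8 with a higher step in M19 (red triangles) lie above the diagonal, and the 18 others with a lower step (orange squares) below it.

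Genes of the male germline piRNA pathway mostly rose in both strains, and a few germline genes rose further in M19. Morc1, an ATPase needed for transposon repression in the male germline, and Nxf2, a germ cell member of the RNA export factors, started lower in M19 at E13.5 and overlapped 129/Sv at E15.5. Sycp1, a component of the synaptonemal complex of meiotic chromosomes, rose further in M19 as well. Morc1 lies on chromosome 16 (48431237 to 48630905), Nxf2 on chromosome X (134944526 to 134964754) and Sycp1 on chromosome 3 of build GRCm38.p6.

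The 150 bases upstream of the RefSeq start of Nxf2 and Sycp1 are shown because both hold the letters CACGTG, the palindromic E-box core. Capitals mark each CACGTG. The Nxf2 window is chrX:134964755-134964904 and the Sycp1 window chr3:102936101-102936250, both on the minus strand and written 5′ to 3′.
Nxf2: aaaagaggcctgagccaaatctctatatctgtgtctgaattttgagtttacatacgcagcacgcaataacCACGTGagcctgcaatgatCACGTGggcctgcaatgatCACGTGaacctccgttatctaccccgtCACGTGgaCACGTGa
Sycp1: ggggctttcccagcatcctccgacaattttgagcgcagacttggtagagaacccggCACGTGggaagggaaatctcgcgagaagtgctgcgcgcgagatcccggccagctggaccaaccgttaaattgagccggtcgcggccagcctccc
The Nxf2 window holds 5 copies and the Sycp1 window 1. Searched over 250 bases upstream of the start, CACGTG occurs in 1634 of 27025 promoters of the RefSeq table (6.05%). Of the 7 named genes with a higher step in M19, 5 have an entry in that table and 2 hold CACGTG. On the list of piRNA and transposon silencing genes described below, 7 of the 18 with an entry hold it (38.9%). Those 18 promoters are also richer in CG, which CACGTG contains, with a median of 16 CG per window against 6 over all promoters. A match describes letters only, not a bound site.

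Morc1 stood at 11.60 and 11.52 on the M19 E15.5 arrays and 6.75 and 6.80 on the M19 E13.5 arrays, against 11.40 and 11.57 on the 129/Sv E15.5 arrays and 7.98 and 8.47 on the 129/Sv E13.5 arrays. The strains overlapped at E15.5 and were separate at E13.5, where M19 was lower. The M19 step was 4.78 and the 129/Sv step 3.27, a double difference of 1.52 ± 0.22 (SE, adjusted p = 0.028). Nxf2 stood at 11.74 and 11.49 in M19 at E15.5 and 6.75 and 6.82 at E13.5, against 11.65 and 11.71 in 129/Sv at E15.5 and 8.02 and 8.26 at E13.5. The picture was that of Morc1, with M19 lower at E13.5 alone. Its steps were 4.83 in M19 and 3.54 in 129/Sv, a double difference of 1.29 ± 0.18 (adjusted p = 0.017).

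Sycp1 reached 9.35 and 9.22 in M19 at E15.5, with 7.14 and 7.21 at E13.5, against 8.65 and 8.76 in 129/Sv at E15.5 and 7.61 and 7.75 at E13.5. M19 was the lower strain at E13.5 and the higher one at E15.5 on all arrays, although neither strain difference was called. Its steps were 2.11 in M19 and 1.02 in 129/Sv, a double difference of 1.09 ± 0.16 (adjusted p = 0.026). These 3 calls lie near the threshold. After quantile normalization their adjusted p-values were 0.091 for Morc1, 0.06 for Nxf2 and 0.059 for Sycp1, and under median centring 0.08, 0.057 and 0.067. Leaving out 1 array at a time ended the Morc1 call in 8 of 12 fits, the Nxf2 call in 7 and the Sycp1 call in 10. Without 129/Sv E13.5 replicate 1, the array with the high 18S controls, all 3 stayed called at 1.76, 1.41 and 1.16.

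A probe set of Gtsf1, a zinc finger protein that works with PIWI proteins, also started lower in M19. It stood at 11.97 and 11.82 in M19 at E15.5 and 7.39 and 7.41 at E13.5, against 11.45 and 11.58 in 129/Sv at E15.5 and 8.48 and 8.88 at E13.5. Its double difference was 1.66 ± 0.22 (adjusted p = 0.014), a call lost in 6 of the 12 fits lacking 1 array (adjusted p up to 0.112) and when the 8 arrays of E13.5 and E15.5 were fitted alone (adjusted p = 0.063). The brightest Gtsf1 probe set gave 0.46 ± 0.24 and was not called, so the probe sets of this gene disagree in size. A probe set of the uncharacterised gene Gm9112 rose by 1.27 in M19 with -0.06 in 129/Sv, a double difference of 1.33 ± 0.16 (adjusted p = 0.0083), and the brightest probe set of Gm9112 gave 0.04. The Gm9112 call was lost in 4 of the 12 fits. A further called probe set, which the annotation pairs with several genes, gave 1.36 ± 0.17 and is not named.

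**Figure D2:**
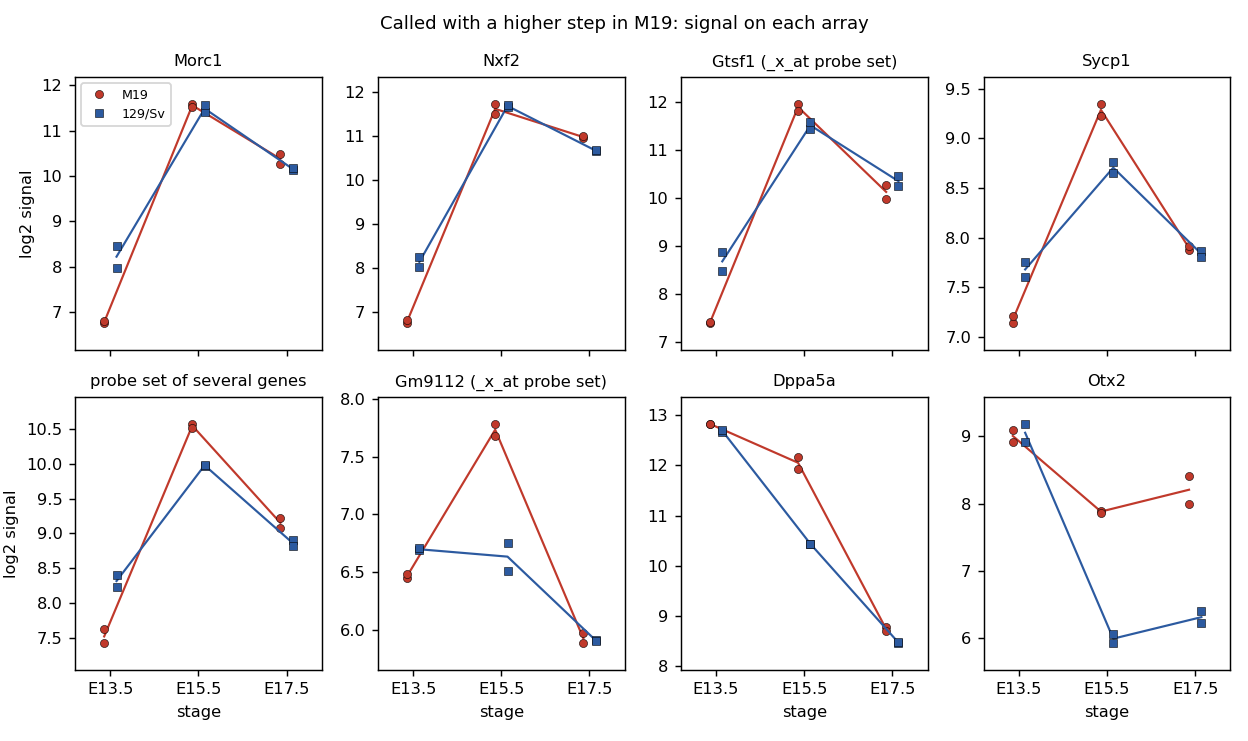
Log2 signal on each array (y axis) at E13.5, E15.5 and E17.5 (x axis) for the 8 probe sets with a higher step in M19; circles are M19, squares 129/Sv, and lines join group means. Morc1, Nxf2 and Gtsf1 start lower in M19 at E13.5, and Morc1 and Nxf2 overlap 129/Sv at E15.5, while Dppa5a and Otx2 start level and stay higher in M19 at E15.5.

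The list of male germline piRNA and transposon silencing genes holds 20 measured members, of which 2 had a called, higher step in M19 (Morc1 and Nxf2, background 0.0277%) and none a lower one. In M19 20 of the 20 rose (background 5.78%), and in 129/Sv 16 of the 20 rose (background 4.49%). The median double difference was 0.42 and 17 of 20 were above 0, against a median of 0.08 and 66.7% above 0 over all genes. The list mean per array was 8.13 to 8.15 in M19 and 8.64 to 8.70 in 129/Sv at E13.5, and 10.33 to 10.44 in M19 and 10.33 to 10.46 in 129/Sv at E15.5. The list thus sat lower in M19 on both arrays of the first stage and overlapped at the second.

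Several members had large double differences that did not pass the test. Piwil4, the PIWI protein of the fetal male nucleus, stood at 11.25 and 11.14 in M19 at E15.5 and 5.57 and 5.66 at E13.5, against 11.27 and 11.54 in 129/Sv at E15.5 and 6.75 and 7.65 at E13.5. Its double difference was 1.37 ± 0.39 with an adjusted p of 0.66, the 129/Sv E13.5 arrays differing between themselves. Tdrd5, a tudor protein of the pathway, gave 1.02 ± 0.20 (adjusted p = 0.14) and Mael, a piRNA cofactor, 0.81 ± 0.21 (adjusted p = 0.52). Mael was called at 1.07 (adjusted p = 0.031) without 129/Sv E13.5 replicate 1. Other members moved alike in both strains. Dnmt3l, the cofactor of de novo DNA methylation, rose by 2.77 in M19 and 2.85 in 129/Sv, and the tudor helicase gene Tdrd9 by 3.46 in M19 and 3.28 in 129/Sv.

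The meiosis list had 15 measured members, of which 1, Sycp1, was called (background 0.0277%). In M19 10 of the 15 rose (background 5.78%) and in 129/Sv 6 of the 15 rose (background 4.49%). The median double difference was 0.36 with 13 above 0, against 0.08 and 66.7% over all genes. Sycp3, another component of the synaptonemal complex, rose by 2.60 in M19 and by 1.44 in 129/Sv, and its double difference of 1.16 ± 0.29 was not called (adjusted p = 0.44). Its partner Sycp2 gave 0.91 and was not called either. Stra8, the retinoic acid target that opens meiosis, had steps of 0.58 in M19 and -0.02 in 129/Sv, neither of them called. At E17.5 the strains' Sycp1 levels were 7.88 and 7.92 in M19 and 7.87 and 7.81 in 129/Sv, with a strain difference of 0.06.

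Dppa5a, which encodes a KH domain protein made in pluripotent cells and lies on chromosome 9, and the epiblast and forebrain homeobox gene Otx2 fell in both strains and fell less in M19. For Dppa5a the arrays showed 12.17 and 11.93 in M19 at E15.5 and 12.82 and 12.83 at E13.5, against 10.43 and 10.44 in 129/Sv at E15.5 and 12.67 and 12.70 at E13.5. The strains lay within 0.14 of each other at E13.5 and were well apart at E15.5, with M19 higher. The M19 step was -0.77 and the 129/Sv step -2.25, a double difference of 1.48 ± 0.16 (adjusted p = 0.0034). By E17.5 Dppa5a was at 8.78 and 8.71 in M19 and 8.46 and 8.49 in 129/Sv, a strain difference of 0.27 that was not called.

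Otx2, on chromosome 14, is not a member of the pluripotency list. It stood at 7.90 and 7.87 in M19 at E15.5 and 9.09 and 8.92 at E13.5, against 6.07 and 5.92 in 129/Sv at E15.5 and 8.92 and 9.19 at E13.5. The groups overlapped at E13.5 and were separate at E15.5. The M19 step was -1.12 and the 129/Sv step -3.06, a double difference of 1.93 ± 0.22 (adjusted p = 0.0055). At E17.5, on arrays that the double difference does not use, Otx2 was at 8.00 and 8.42 in M19 and 6.40 and 6.23 in 129/Sv, a called difference of 1.89. Dppa5a and Otx2 stayed called in all 12 fits lacking 1 array, with adjusted p up to 0.039 and 0.049.

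Of the 19 measured genes on the pluripotency list, 1 was called with a higher step in M19 (Dppa5a, background 0.0277%) and none with a lower one. The median double difference was 0.54, and 16 of 19 were above 0, against 0.08 and 66.7% over all genes. In M19 4 of the 19 fell (background 1.66%) and 2 rose (background 5.78%), and in 129/Sv 8 fell (background 1.85%) and 2 rose (background 4.49%). Sox2, a core pluripotency factor, had steps of -0.36 in M19 and -1.92 in 129/Sv, and its double difference of 1.56 ± 0.31 was not called (adjusted p = 0.18). Nanog, another core factor, had an M19 step of -0.93 and a 129/Sv step of -2.10, with 1.18 ± 0.32 (adjusted p = 0.58). Dppa3, a maternal and germ cell factor, had 0.88 ± 0.18 (adjusted p = 0.18). Pou5f1 (Oct4) rose by 0.79 in M19 with a 129/Sv step of -0.01, and its double difference of 0.80 was not called. Klf4 went the other way, at -0.83, since it rose by 1.45 in 129/Sv while its M19 step of 0.61 was not called.

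The list's strain differences, which share arrays with the double difference, had medians of 0.08 at E13.5, 0.64 at E15.5 and 0.11 at E17.5. The germ cell identity list, which holds general germ cell genes, had no called member of 17 (background 0.194%) and a median double difference of 0.19. In M19 7 of the 17 rose (background 5.78%) and 2 fell (background 1.66%). In 129/Sv 7 rose (background 4.49%) and 2 fell (background 1.85%). The list mean per array at E15.5 was 10.11 to 10.16 in M19 and 9.95 to 10.14 in 129/Sv.

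The largest class of calls was high in 129/Sv E15.5 alone. It held 34 probe sets of 32 genes, in which keratins and other genes of the epidermis, contractile proteins of skeletal muscle, and matrix genes of cartilage and tendon lead. The step within 129/Sv was called and upward for 34 of the 34 (3.08% of all probe sets), with a median of 2.27. The class rule asks for a 129/Sv E15.5 mean at least 1 log2 unit above E13.5, so an upward step was fixed by the selection. The step within M19 was not called for 28 and was downward for 6 (1.59% of all probe sets), with a median of -0.13. The class held 22 probe sets without M19 E15.5 replicate 2. The strain difference, M19 minus 129/Sv, had a median of -0.02 at E13.5, -2.39 at E15.5 and -0.01 at E17.5. None of the 34 was called at E13.5 or E17.5, where 0.0511% and 0.0977% of all probe sets were called, and the double differences ran from 1.19 to 4.11 in size. The rule chose these probe sets by the 129/Sv E15.5 level, so their levels, 129/Sv steps and strain differences at E15.5 are a description.

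Among epidermal genes, Krt1, a keratin of differentiating epidermis, stood at 7.64 and 7.74 in M19 at E15.5 and 7.70 and 7.73 at E13.5, against 11.30 and 11.39 in 129/Sv at E15.5 and 8.02 and 7.69 at E13.5. The double difference was -3.51 ± 0.18 (adjusted p = 2.5e-05). Both 129/Sv E15.5 arrays carried it, and all 10 other arrays lay at 7.64 to 8.04. Perp, a desmosome protein of stratified epithelia, stood at 6.06 and 5.88 in M19 at E15.5 and 5.86 and 5.95 at E13.5, against 9.87 and 10.18 in 129/Sv at E15.5 and 5.52 and 6.22 at E13.5, a double difference of -4.09 ± 0.32. At E17.5 Perp averaged 7.33 in M19 and 7.35 in 129/Sv, above the E13.5 means of 5.91 in M19 and 5.87 in 129/Sv.

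The basal keratins Krt5 and Krt15 gave -2.81 ± 0.27 and -3.07 ± 0.23, the suprabasal keratin Krt10 -2.56 ± 0.23, the keratinocyte genes Krtdap and Dmkn -3.21 ± 0.27 and -2.49 ± 0.20, and the desmosomal cadherin Dsg1a -1.49 ± 0.21. The Dsg1a call was lost in 8 of the 12 fits lacking 1 array. Krtdap stood at 6.66 and 6.67 in M19 and at 10.00 and 9.93 in 129/Sv at E15.5. Like Perp, Dmkn was higher at E17.5 than at E13.5 in both strains. It averaged 8.20 in M19 and 8.28 in 129/Sv at E17.5, against 6.77 and 6.66 at E13.5. Of the 25 measured genes on the epidermis list, 7 were called with a lower step in M19 (background 0.166%) and none with a higher one, with a median of -0.85 and 3 above 0. In M19 1 of the 25 rose, near the background of 5.78%, and in 129/Sv 14 rose (background 4.49%). Genes of the list that did not pass include Krt14 at -1.31 (adjusted p = 0.16), Lor at -0.71 and Ivl at -0.01. The list mean was 9.12 to 9.19 on the 129/Sv E15.5 arrays and 7.84 to 8.11 on all other arrays.

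The upstream window of Krtdap is shown as an example of a promoter of this class with a TATA box, the letters TATAAA. It covers chr7:30787755-30787904 on the plus strand of GRCm38.p6, from RefSeq, with TATAAA in capitals.
Krtdap: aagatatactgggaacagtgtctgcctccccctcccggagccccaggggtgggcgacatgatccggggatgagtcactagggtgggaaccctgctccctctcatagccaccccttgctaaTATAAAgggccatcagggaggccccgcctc
TATAAA on either strand occurs within 250 bases upstream in 3504 of 27025 promoters (12.97%), and in 9 of the 22 genes of the class with a table entry (40.9%). CACGTG was found in 1 of these 22. Of the genes of the other probe sets with a lower step in M19, 15 have an entry and 2 of them hold TATAAA. Tnnt2 and Fmod have probe sets on both sides of the class limit and are counted in both sets, so the sets are not separate.

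Among muscle genes, Actc1, the cardiac and fetal skeletal actin, stood at 7.28 and 7.21 in M19 at E15.5 and 7.92 and 7.89 at E13.5, against 10.63 and 10.80 in 129/Sv at E15.5 and 7.78 and 8.09 at E13.5. Its double difference was -3.45 ± 0.18 (adjusted p = 2.5e-05). Actc1 is 1 of the 6 probe sets that fell in M19 while they rose in 129/Sv. Myh3, the embryonic myosin heavy chain, averaged 7.12 in M19 and 9.93 in 129/Sv at E15.5, a double difference of -2.69 ± 0.24. At E17.5 Myh3 averaged 8.10 in M19 and 8.08 in 129/Sv, above the E13.5 means of 7.14 in M19 and 7.26 in 129/Sv. The fast light chains Mylpf and Myl1 each gave -2.09 ± 0.19, Klhl41, a sarcomere assembly protein, -2.15 ± 0.31, and the skeletal actin Acta1 -1.64 ± 0.25. The call of Klhl41 was lost in 8 of the 12 fits lacking 1 array and that of Acta1 in 10, and the Acta1 adjusted p was 0.079 under quantile normalization.

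On the skeletal muscle list 9 of 28 measured genes had a called, lower step in M19 (background 0.166%) and none a higher one, with a median of -0.46 and 6 above 0. In M19 3 of the 28 rose (background 5.78%) and 1 fell (background 1.66%), and in 129/Sv 14 rose (background 4.49%). The called members are genes of the contractile apparatus and the sarcomere assembly gene Klhl41, and the myogenic factors of the list were not called. Myog gave -0.91 (adjusted p = 0.53), Myf5 -0.78 and Myod1 0.06. Casq2, a calcium store protein, rose in both strains with 1.74 in M19 and 1.31 in 129/Sv. The list mean was 8.44 to 8.46 on the 129/Sv E15.5 arrays and 7.46 to 7.92 elsewhere.

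Of the cartilage and tendon list, 3 of 23 measured genes were called, all with a lower step in M19 (background 0.166%). Col2a1, the main cartilage collagen, stood at 7.84 and 7.73 in M19 at E15.5 and 8.55 and 8.41 at E13.5, against 10.42 and 10.42 in 129/Sv at E15.5 and 8.79 and 8.43 at E13.5, a double difference of -2.51 ± 0.19. Kera, a matrix proteoglycan, gave -2.90 ± 0.19 and Tnmd, a marker of tendon cells, -2.45 ± 0.22. Kera stood at 6.71 and 6.63 in M19 and 9.92 and 9.87 in 129/Sv at E15.5. The list median was -0.30 with 5 above 0. Acan (-0.98) and Col11a1 (-1.12), also of cartilage matrix, did not pass, and the tendon factor Scx was at 0.17. The list mean was 9.0 to 9.11 on the 129/Sv E15.5 arrays and 8.35 to 8.58 elsewhere. The bone list had no called gene of 5 measured (background 0.194%), with a median of -0.13. Its member Ibsp enters with its brightest probe set at -0.57, while another Ibsp probe set was called at -3.83.

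Further members of the class were picked out after their values were seen. Hoxd13, a homeobox gene of the distal limb and the genital tubercle, gave -2.04 ± 0.18, Dkk2, a Wnt modulator, -2.15 ± 0.23, the epithelial gene S100a14 -1.51 ± 0.22 and Ccn3, a matricellular protein, -2.22 ± 0.22. The other probe set of Hoxd13 gave -0.71 and was not called. The S100a14 call was lost in 10 of the 12 fits lacking 1 array. Several called probe sets of the class are not the brightest of their gene. The called value was -3.91 for the chemokine gene Cxcl14 with -1.37 (not called) on its brightest probe set, -3.83 for the bone sialoprotein gene Ibsp with -0.57, and -3.55 for the transcription factor gene Tbx18 with -0.19. It was -1.79 for Trp63, the master factor of stratified epithelia, whose brightest probe set gave 0.04.

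**Figure D3:**
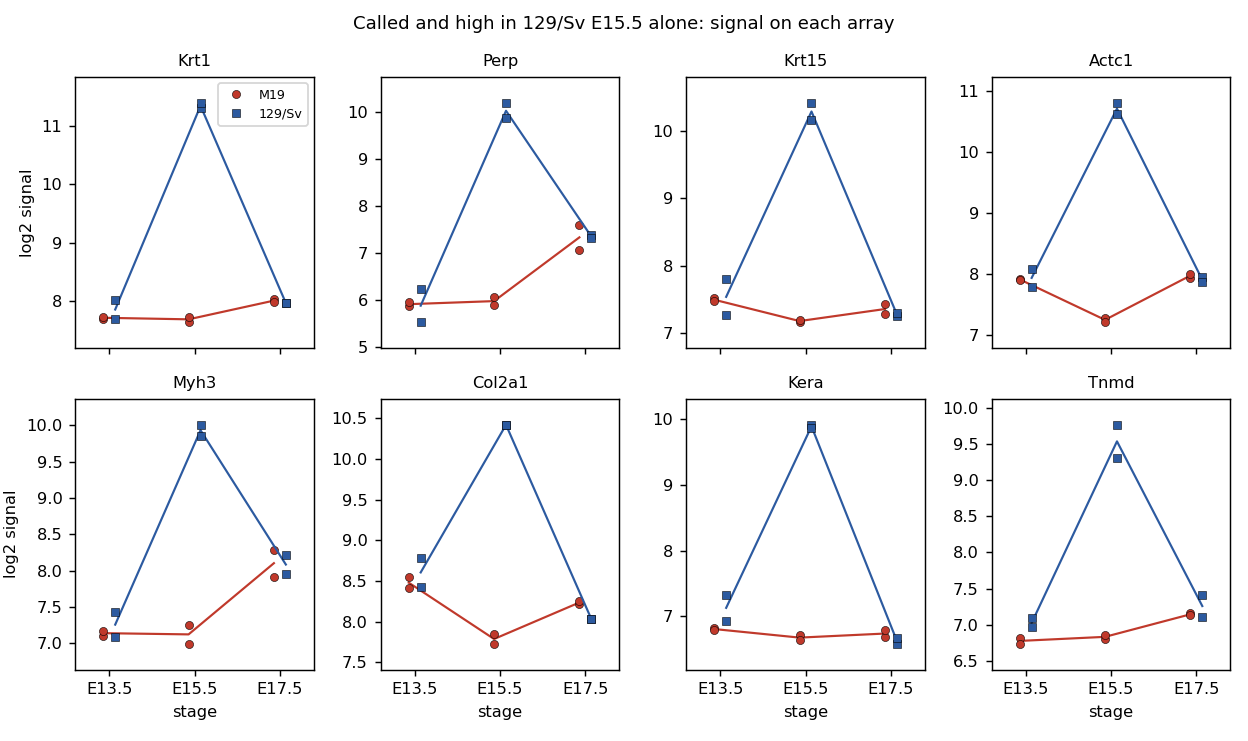
Log2 signal on each array (y axis) by stage (x axis) for 8 genes high in 129/Sv E15.5 alone; circles are M19, squares 129/Sv, and lines join group means. In each gene the 129/Sv E15.5 arrays sit above the 10 other arrays, from 9.31 for Tnmd to 11.39 for Krt1.

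The remaining 18 probe sets with a lower step in M19 are of 16 genes, of which Tnnt2 and Fmod also have probe sets in the class. The 18 probe sets split by which strain moved. In 11 of them 129/Sv rose and the M19 step was not called, in 5 M19 fell and the 129/Sv step was not called, and in 2 M19 fell while 129/Sv rose. All 18 were lower in M19 at E15.5 (0.453% of all probe sets), a comparison that shares its arrays with the double difference. None was called at E13.5, where 0.0511% of all probe sets were called, so nothing is read from that. Those in which M19 fell include mesenchyme and matrix genes. Postn (periostin), a matrix protein of fibroblasts on chromosome 3, stood at 10.35 and 10.04 in M19 at E15.5 and 11.50 and 11.48 at E13.5, against 11.72 and 11.87 in 129/Sv at E15.5 and 11.63 and 11.59 at E13.5. It fell by 1.30 in M19 and its 129/Sv step was 0.19, a double difference of -1.48 ± 0.19 (adjusted p = 0.013).

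At E17.5 Postn overlapped between the strains, at 10.36 and 10.57 in M19 and 10.54 and 10.36 in 129/Sv. Crabp1, a retinoic acid binding protein, stood at 8.06 and 7.95 in M19 at E15.5 and 8.86 and 8.87 at E13.5, against 9.55 and 9.36 in 129/Sv at E15.5 and 8.68 and 9.07 at E13.5. Its double difference was -1.44 ± 0.22 (adjusted p = 0.035), a call lost in 11 of the 12 fits lacking 1 array and under quantile normalization (adjusted p = 0.083). The Postn call was lost in 4 of the 12.

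A probe set of Prrx1, a homeobox gene of limb and body wall mesenchyme, fell by 1.54 in M19 and rose by 0.61 in 129/Sv. Its arrays showed 7.75 and 7.50 in M19 at E15.5 and 9.15 and 9.18 at E13.5, against 9.55 and 9.79 in 129/Sv at E15.5 and 8.90 and 9.23 at E13.5. The double difference was -2.15 ± 0.21 (adjusted p = 0.0017), while the brightest Prrx1 probe set gave 0.18. Another Prrx1 probe set gave -1.78 ± 0.41 and was not called. A probe set of Cpm, a membrane carboxypeptidase, fell by 1.68 in M19 with a 129/Sv step of -0.28 and a double difference of -1.41 ± 0.18 (not called in 5 of the 12 fits), the brightest giving -0.27. By E17.5 Cpm was at 6.53 and 6.63 in M19 and 6.64 and 6.56 in 129/Sv, and the strains overlapped. The Wnt inhibitor Apcdd1 had 2 called probe sets at -1.40 and -1.27, each lost in 11 of the 12 fits, and 0.06 on its brightest.

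Genes that rose in 129/Sv and whose M19 step was not called include further muscle genes. Myh8, the perinatal myosin heavy chain, gave -1.81 ± 0.19, Myl4, an embryonic light chain, -1.34 ± 0.18, and Tnnc2, the fast troponin C, -1.32 ± 0.16. The other probe set of Myl4 gave 0.04 and was not called. Tnnc2 stood at 7.33 and 7.33 in M19 and 8.71 and 8.77 in 129/Sv at E15.5, and at 7.92 and 7.98 in M19 and 7.91 and 7.96 in 129/Sv at E17.5. Its E17.5 level lay above E13.5 in both strains, which kept it out of the class high in 129/Sv E15.5 alone. Ebf3, a transcription factor of mesenchyme and neurons, gave -1.21 ± 0.18, and the fibroblast matrix gene Dpt -1.23 ± 0.18. Dpt stood at 7.22 and 7.26 in M19 and 8.34 and 8.63 in 129/Sv at E15.5, and at 8.24 and 8.32 in M19 and 8.86 and 8.70 in 129/Sv at E17.5. The call of Dpt was lost in 10 of the 12 fits lacking 1 array and that of Ebf3 in 9, and those of Myl4 and Tnnc2 in 4 each.

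Myh8, Myl4 and Tnnc2 are on the skeletal muscle list, so the levels of that list given above move with these calls too. Ttn is on it as well, and Col9a1 and Fmod are on the cartilage and tendon list. These genes enter their lists with their brightest probe sets, which were not called. Those gave -0.02 for Ttn, -0.30 for Col9a1 and -0.43 for Fmod. The part of skin, muscle and cartilage RNA in the 52 lower calls was not tested. Without the probe sets whose 129/Sv mean at E15.5 exceeds both other 129/Sv stages by 1 log2 unit or more, a selection made after the data were seen, 13 of 44945 probe sets were called. Of these 3 were higher in M19, Dppa5a, Otx2 and the probe set of Gm9112, and 10 lower, among them Postn, Anxa1 and the probe sets of Prrx1 and Cpm. The selection itself took out Morc1, Nxf2, the probe set of Gtsf1 and that of several genes, so it says nothing about them. A further 8 called probe sets, Sycp1 among them, stayed in and lost their call. Their double differences were unchanged, and only the moderation and the adjustment of p-values differed.

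Chromosome 19, the substituted one, held 2 of the 58 called probe sets with a known chromosome (3.45%), against 1211 of the 34737 tested (3.49%). Anxa1, a phospholipid-binding protein (chromosome 19, 20373434 to 20390671), stood at 8.82 and 8.59 in M19 at E15.5 and 8.66 and 8.58 at E13.5, against 10.54 and 10.76 in 129/Sv at E15.5 and 8.72 and 8.90 at E13.5. It rose in 129/Sv, and its M19 step of 0.08 was not called, with a double difference of -1.76 ± 0.19 (adjusted p = 0.0034). At E17.5 it was 9.14 and 9.34 in M19 and 10.12 and 10.10 in 129/Sv, a difference of -0.87 ± 0.13 that missed the threshold (adjusted p = 0.051). The other probe set of Anxa1 gave -0.01. Mbl2, a mannose-binding lectin of the liver (chromosome 19, 30232906 to 30239687), was dim and is named here because it is on chromosome 19. It gave -1.16 ± 0.15 (adjusted p = 0.013, not called in 6 of the 12 fits), with 6.32 and 6.29 in M19 and 7.77 and 7.76 in 129/Sv at E15.5. Mbl2 was lower in M19 at E17.5 too, with a difference of -0.80 ± 0.11 (adjusted p = 0.02), the only such call among the 52.

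**Figure D4:**
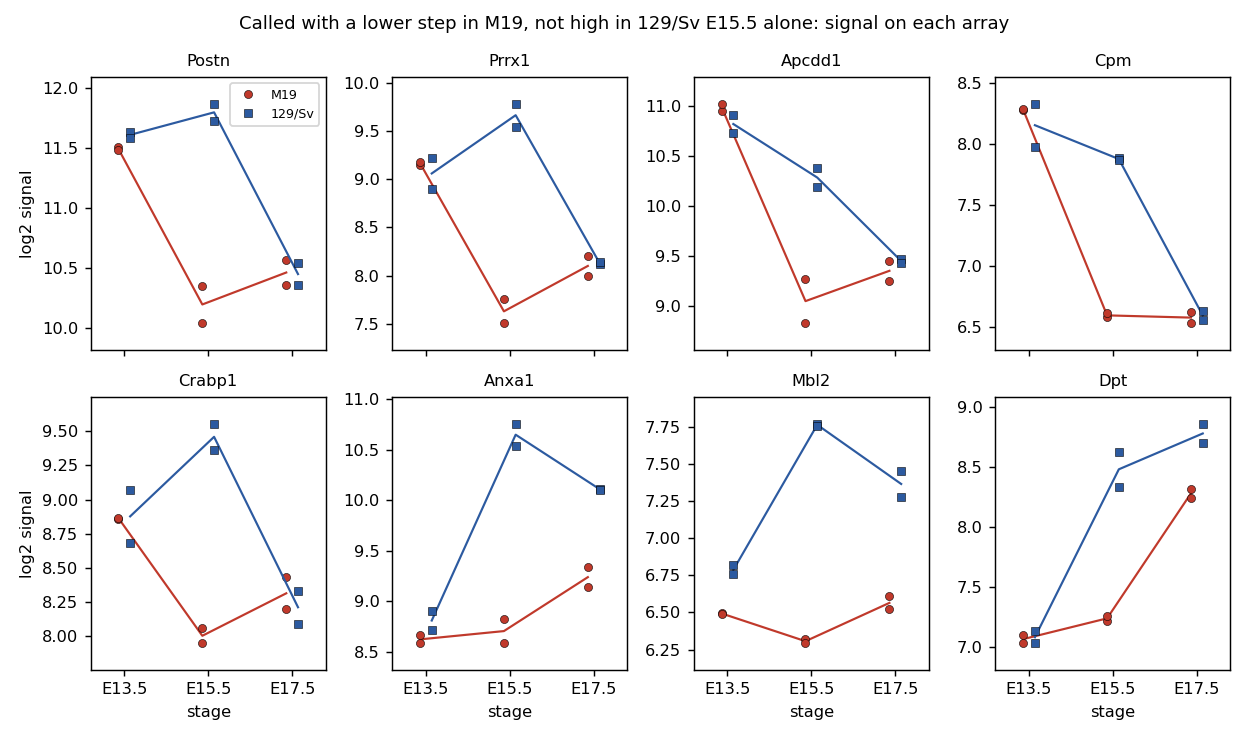
Log2 signal on each array (y axis) by stage (x axis) for 8 probe sets with a lower step in M19 that are not high in 129/Sv E15.5 alone; circles are M19, squares 129/Sv, and lines join group means. Postn, Prrx1, Apcdd1, Cpm and Crabp1 drop in M19 by E15.5 and meet 129/Sv by E17.5. Anxa1, Mbl2 and Dpt stay lower in M19 at E17.5, where only the Mbl2 difference was called.

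The lists of the testis's own somatic cells had no called gene in either direction. With 0.194% of all genes called, lists this short would seldom hold a call. Nothing is read from the lack of calls, here or in the lists that follow. The median double difference was 0.12 over 19 Sertoli cell genes, 0.27 over 12 fetal Leydig cell genes, 0.02 over 10 peritubular muscle genes, 0.06 over 12 interstitial genes and 0.06 over 12 endothelial genes. Within the strains, 9 of the 12 Leydig genes rose in M19 (background 5.78%) and 9 in 129/Sv (background 4.49%). The Leydig list holds Agtr2, an angiotensin receptor, at -1.32, which did not pass (adjusted p = 0.068). Lists for macrophages (-0.09), red blood cells (0.09), the coelomic surface (0.10), neural and chromaffin cells (-0.00), proliferation (0.04), cell cycle inhibitors (0.08), Nodal signalling (0.07) and DNA methylation (0.10) had none called either. The same held for the 3 genes that the series text names (-0.02).

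The mesonephros, the neighbouring embryonic kidney whose ducts border the testis, had a list median of 0.02 over 14 genes and none called. Hoxa10, a homeobox gene of the genital tract, gave -2.40 with an adjusted p of 0.21, and Gata3, of the mesonephric duct, -1.07.

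**Figure D5:**
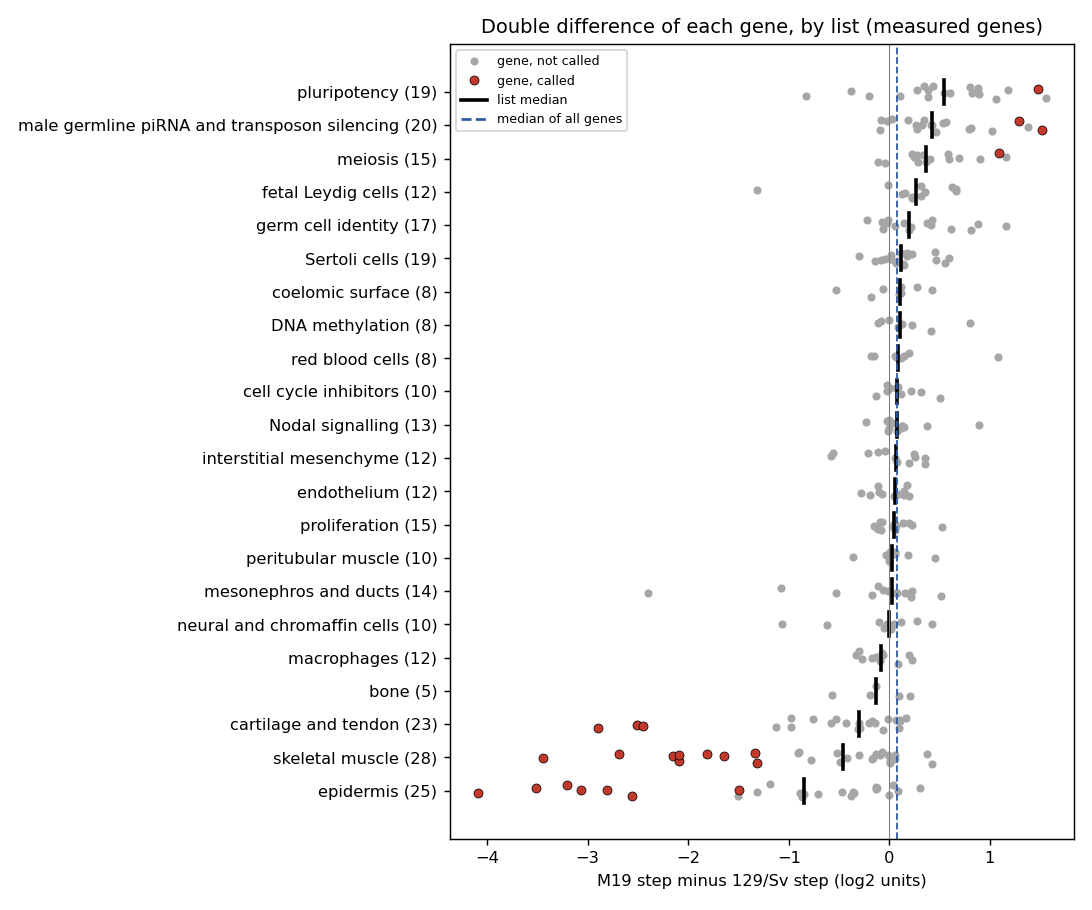
Double difference (M19 step minus 129/Sv step, log2 units, x axis) of each measured gene, by list (y axis, number of genes in brackets); red points are called genes, black bars list medians, and the dashed line the median of all genes, 0.08. The epidermis, skeletal muscle and cartilage lists hold 19 called genes to the left, and the pluripotency, piRNA and meiosis lists 4 to the right.

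Probe sets of the same gene differed in part. Ccn3, Fmod, Apcdd1 and Tnnt2 each had more than 1 called probe set, which lay at -2.22 and -4.11 for Ccn3, -1.06, -1.19 and -1.23 for Fmod, and -1.37 and -2.43 for Tnnt2. Another 41 probe sets of 22 called genes were not called, and 28 of the 41 had the sign of the called one. The 41 were chosen for not being called, so nothing is read from that share. Among the 41 were the brightest probe sets of Fmod at -0.43 and of Tnnt2 at -0.13.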

How the data were processed

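Total RNA of male genital ridges was measured on Affymetrix whole-genome mouse arrays, 2 for each of 6 groups. The authors deposited 1 summarised value for each of 45101 probe sets per array, taken here as log2 signal because the values run on that scale with array medians of 8.1 to 8.27. The summary method, the normalization and the log base are not given in the sources used here. The study itself kept 38069 probe sets, per its series text. No raw intensities were used, and no further normalization was applied.

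The 64 control probe sets were left out. The platform annotation pairs 34945 of the 45037 others with 1 gene, 932 with several and 9160 with none, and 34741 matched 1 gene of the RefSeq table of build GRCm38.p6, which gave names and positions. The brightest probe set by its mean over all arrays stands for a gene (18032 genes). Upstream sequences come from the RefSeq promoter table of the same build.

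limma 3.58.1 in R 4.3.3 fitted 1 mean per group to the 12 arrays together, with no replicate block and with eBayes moderation (6 residual and 4.82 prior degrees of freedom). The double difference, both steps and the strain difference at each stage are contrasts of this fit, tested two-sided with Benjamini-Hochberg adjustment over 45037 probe sets and called at an adjusted p under 0.05. Errors are model standard errors. Tables and plots used Python 3.11.15, pandas 2.3.3 and matplotlib 3.10.9. The fit was checked on data with known changes.

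The comparison, the gene lists and the naming rule were chosen with earlier results of these data known. Named are called representatives with 1 sign in all 16 array combinations and a highest group mean above the median of all probe sets (8.17): up to 15 per direction outside the class high in 129/Sv E15.5 alone and up to 12 in it. Members of the lists are named too, and other called probe sets only where the value of their gene's representative is also given. The replicate numbers of the labels only name arrays: over 15 pairs of groups the correlation of replicate deviations was -0.37 to 0.54, with a median of 0.01. Alternatives changed the arrays fitted, the scaling, the filter, the variance model, the representative and the class limit, added a replicate block, or left out each array in turn.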

Additional observations from a re-analysis of the deposited data

Results flagged for a closer look

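The comparison is a strain by stage difference, and each call means that the step from E13.5 to E15.5 differed between M19 and 129/Sv by limma's test of that difference. This holds for all 60 called probe sets and for the 24 genes that the naming rule takes.

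Among genes of pluripotent and germ cells the M19 step was higher by 1.93 for Otx2, 1.52 for Morc1, 1.48 for Dppa5a, 1.29 for Nxf2 and 1.09 for Sycp1. Outside the class high in 129/Sv E15.5 alone it differed by -1.76 for Anxa1, -1.48 for Postn, -1.44 for Crabp1, -1.34 for Myl4, -1.32 for Tnnc2, -1.23 for Dpt and -1.21 for Ebf3.

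In the class high in 129/Sv E15.5 alone the epidermal genes differed by -4.09 (Perp), -3.51 (Krt1), -3.21 (Krtdap), -3.07 (Krt15), -2.81 (Krt5), -2.56 (Krt10) and -2.49 (Dmkn). Values were -3.45 for Actc1 and -2.69 for Myh3, both of muscle, and -2.90 for Kera, -2.51 for Col2a1 and -2.45 for Tnmd, of matrix and tendon. The list means of epidermis, skeletal muscle and cartilage were highest on both 129/Sv E15.5 arrays, and their part in these differences was not tested.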

How the results depend on the processing

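No called probe set changed direction under any of the alternatives run. For most alternatives this was fixed in advance. All called probe sets had 1 sign in all 16 array combinations, so leaving out 1 array could not reverse them. Changing the variance model, the probe sets tested or the E17.5 arrays leaves the double difference as it is. The 60 calls (8 higher, 52 lower, 34 high in 129/Sv E15.5 alone, 26 others) became 29, with 2 higher, 27 lower and 4 outside the class, when the 8 arrays of E13.5 and E15.5 were fitted alone, which leaves fewer residual degrees of freedom. Median centring left 5 higher calls, and Morc1, Nxf2 and Sycp1 missed the threshold there and under quantile normalization. A class limit of 2 log2 units gave 16 in the class and 44 outside, and a limit of 0.5 gave 17 outside. Without the probe sets at least 1 log2 unit higher in 129/Sv E15.5 than at each other 129/Sv stage, an alternative chosen after seeing the data, 13 were called, 3 higher and 10 lower, with 0 in the class by construction and 13 outside. Morc1 and Nxf2 were among the probe sets left out there. Leaving out each array in turn gave 28 to 77 calls, 2 to 12 higher, 25 to 65 lower, 22 to 35 in the class and 5 to 42 outside. The calls outside the class were 42 without 129/Sv E13.5 replicate 2, 6 and 5 without M19 E13.5 replicate 1 and 2, 8 and 6 without M19 E15.5 replicate 1 and 2, 16 and 12 without 129/Sv E15.5 replicate 1 and 2, and 16 without either 129/Sv E17.5 array. A lone array of a group was assumed to vary like the other groups. With the replicate number as a block 59 were called, 56 of them shared, and the numbers are shared names only. Quantile normalization moved the median double difference of all genes to 0.01 and median centring to 0.03, from 0.08. Small changes of dim probe sets cannot be shown with 2 arrays per group.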
